A study of Mus musculus with 8 samples.

Results

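Peaks named for 11 families of developmental transcription factors made up 499 of the 87940 deposited YTHDF3 peaks and 71 of the 8627 gene names. Members were chosen by name alone, as any Hox gene of the a to d clusters or any numbered Meis, Pbx, Sox, Tbx, Klf, Gata, Lhx, Runx or Twist gene, together with sine oculis homologs such as Six4 and Six5. The peaks came from RIP-seq of wild type C57BL/6 mouse embryonic fibroblasts (MEFs), in which RNA bound to endogenous YTHDF3 was immunoprecipitated (IP) with an anti-YTHDF3 antibody and sequenced beside an input library. MEFs were taken from embryos at day 13.5, used at 5 to 6 passages, and kept in normal medium or in nutrient-deprived medium for 2 h (starved), with 2 replicates per condition. No group carried an added allele. The study reports repeating its cell culture work on separate days, but does not tie this to single libraries, so the p-values given here measure the spread between these libraries, whatever its source.

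YTHDF3 is a cytoplasmic reader protein that binds mRNAs carrying m6A, a methyl mark placed on adenosine mostly within GGAC and related motifs. The families encode DNA-binding proteins that lay out the embryo. Hox genes sit in clusters and set position along the body axis, with Meis and Pbx proteins as their DNA-binding partners, while the sine oculis homologs and the Tbx, Gata, Lhx, Runx, Sox, Klf and Twist proteins direct the formation of limb, muscle, blood, bone and mesenchyme.

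After peaks below a 2-fold IP/input enrichment or with a p of 0.0001 or more were dropped, 494 family peaks were left. They numbered 96 and 119 in normal replicates 1 and 2, and 145 and 134 in starved replicates 1 and 2. Both starved lists held more family peaks than either normal list, but the lists as a whole were also longer, and the families took 0.553%, 0.542%, 0.628% and 0.542% of the kept peaks in that order. Kept peaks held between 8818619 and 19271667 IP reads per library, which is a sum over called peaks and not the depth of the library. The lists hold enriched peaks alone, so a missing peak does not show that a transcript was absent or unbound. Of 9 fibroblast markers, Col3a1 and Pdgfrb had a kept peak in all 4 lists and Col1a1, Vim and S100a4 had none. Over their own exons lay 44 of 45 Pdgfrb, 7 of 8 Pdgfra, 5 of 5 Col1a2 and 8 of 27 Col3a1 peaks. The 1 peak each of Fn1 and Thy1 did not lie over an own exon. No epithelial, blood, neural or muscle marker had a kept peak. Of 3 endothelial markers, Pecam1 and Cdh5 had none, whereas Kdr, a receptor, had 8 peaks over its own exons, spread over all 4 lists. Its part in the family results was not tested.

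The deposited gene name is that of the nearest promoter, and it was not always that of the transcript under the peak. In the GENCODE annotation of GRCm38 (mm10), 334 of the 494 kept peaks (67.6%) overlapped an exon of the named gene, 113 lay over an exon of another gene and 47 over no annotated exon. The same share over all kept peaks was not computed, so these counts do not set the families apart from the series. Twist2, a regulator of mesenchymal cells, was the clearest case. None of its 61 peaks touched a Twist2 exon, with 54 over Hdac4, a histone deacetylase, and 6 over the gene model Gm29100. All 21 peaks named Lhx3 lay over Qsox2, all 11 named Tbx19 over Sft2d2 and all 9 named Pbx4 over Lpar2. By contrast, 20 of 21 Gata peaks and 73 of 82 Klf peaks overlapped an exon of their own gene. After this check 61 of the 71 genes still had a peak in at least 1 list.

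**Figure D1:**
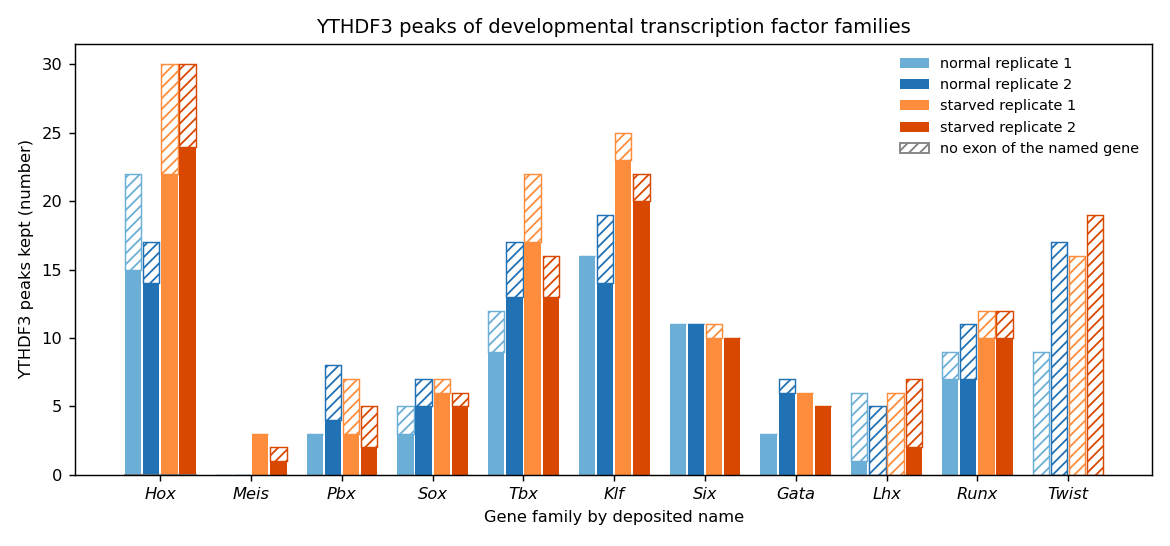
Kept YTHDF3 peaks (vertical axis, number) of each gene family (horizontal axis) in the 4 libraries. Solid bars are peaks over an exon of the named gene and hatched parts are the rest. The 61 Twist peaks are hatched throughout, and the 99 Hox peaks are the most numerous.

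Peaks sharing 1 bp or more across the lists were joined, and the family peaks fell into 231 regions. Of these, 32 regions were called in all 4 lists, against a background of 16.3% of 39979 regions, and 25 of the 32 overlapped an exon of the named gene. In the Hoxa5 region, 1 of the 25, only a peak of starved replicate 2 did so. To show the RNA under these regions, the GGAC motif in an exon nearest to the middle of the strongest 200-bp window is printed with 13 bases on each side. Sequences are from the GRCm38 (mm10) genome, on the strand of the gene, 5′ to 3′, with GGAC in capitals. A match is a description and not a measured m6A site, and the nearest match was 568 bases from the window middle in Sox4 and 188 in Klf13, outside that window. Sox4, Klf2, Klf9, Klf13 and Hoxb3 are shown because the comparison of conditions turned on them or because they were the most densely read, and Six4 and Six5 because 1 site recurred in both genes.
Sox4, untranslated exon, chr13:28950194-28950223, minus strand: ccattttatatgtGGACgtatttatactgg
Klf2, coding sequence, chr8:72319847-72319876, plus strand: ccccgccgcccccGGACacgccgccgctca
Klf9, untranslated exon, chr19:23141232-23141261, plus strand: gcgcggcgcggcaGGACcaggggctcagcg
Klf13, coding sequence, chr7:63938054-63938083, minus strand: gccggagccgcgcGGACctcgagtccccgc
Hoxb3, coding sequence, chr11:96346118-96346147, plus strand: gggggcgcctacgGGACgcccaccatgcag
Six4, coding sequence, chr12:73112575-73112604, minus strand: cgctgggcgccgtGGACaagtaccggctgc
Six5, coding sequence, chr7:19095151-19095180, plus strand: cgctgggcgctgtGGACaaataccggctgc

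The Six4 and Six5 sites, in genes for related homeodomain proteins on different chromosomes, were identical at 28 of 30 bases. Counted from the 5′ end of the Six4 site, they differed by C11T and G20A. Among all 253 pairs of the printed kind of site, the next closest pair shared 18 of 30 bases. The pair was singled out after its sequences were seen. The Sox4 region held 21 exonic GGAC motifs, the larger Hoxb3 region 11, and the Klf13 and Klf2 regions 9 and 8. Only the strand of the gene was searched. Of 160 family windows over an exon of the named gene, 83 (51.9%) held GGAC, beside 57% of 20758 windows over all genes. In regions called in all 4 lists, the shares were 16 of 24 (66.7%) and 60.4%, and the family windows had a GC content of 60.8% against 56.1% over all such windows.

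Hox genes gave the most peaks but few that recurred. Kept peaks carried the names of 27 Hox genes, 9 from the A cluster, 3 from B, 9 from C and 6 from D, and 23 of them had a peak over their own exons. Only 5 of the 27 genes (18.5%) had a kept peak in all 4 lists, against 42.9% of 8612 genes over the series. With the peak required to overlap an exon of the gene, these were Hoxb3, Hoxd8, Hoxd9 and Hoxd13. The D cluster held 30 exonic peaks from 6 genes and the A cluster 13 from 9 genes. Hoxa5 was the fifth gene by name, but 5 of its 8 peaks lay over Hoxa6 exons and 1 over its own. Exonic Hox peaks of paralog groups 9 to 13, which pattern the posterior body and the distal limb, came from 13 genes, and those of groups 1 to 4, which act at anterior levels, from 6. These were 35 and 26 peaks, and 2 and 1 of the genes had a kept peak in all 4 lists. The counts were not set against the number of genes in each group.

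**Figure D2:**
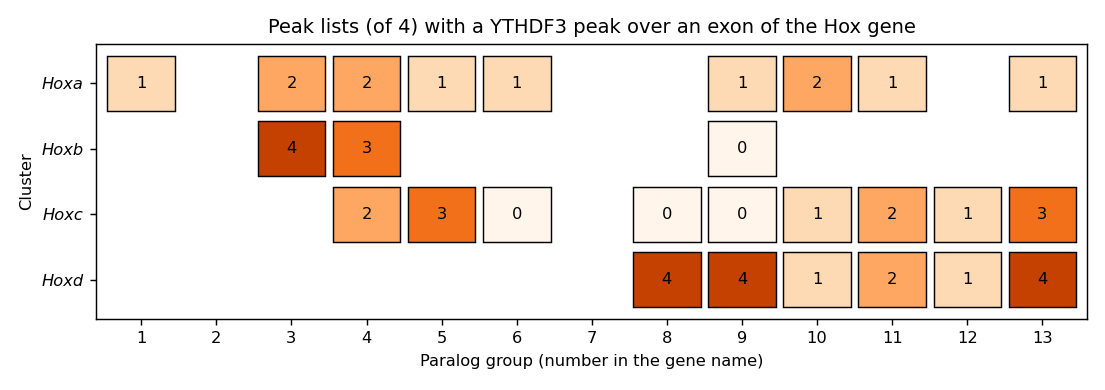
Number of peak lists, of 4, with a kept YTHDF3 peak over an exon of each Hox gene, by cluster (vertical axis) and paralog group (horizontal axis). Only genes whose name occurred in the lists are drawn. Hoxb3, Hoxd8, Hoxd9 and Hoxd13 reached 4 lists, and Hoxb9, Hoxc6, Hoxc8 and Hoxc9 are at 0.

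Hoxb3, an anterior Hox gene, was the most densely read of the Hox genes. Density here is reads per kb of called sequence per 1000000 reads in the regions called in all 4 lists. In its larger region (chr11:96345491-96347400) the IP density was 35.6 and 29.6 in normal and 70.7 and 56.0 in starved MEFs. The input density there was 34.0, 35.5, 71.0 and 57.0 in the same order. Both starved libraries lay above both normal libraries in IP and in input. With 2 libraries per condition, such separation says little by itself, here and below, and its share over all regions is not given. Of the 1910 bases of this region, 1782 also lie over exons of Hoxb3os, an antisense gene, and the lists give no strand, so reads of the 2 genes cannot be told apart. The IP reads differed by 0.97 ± 0.22 (log2, SE) between conditions in edgeR, which did not pass Benjamini-Hochberg adjustment (adjusted p = 0.114), and the input by 0.85 ± 0.29 (adjusted p = 0.369). DESeq2 called the IP difference (adjusted p = 0.0128), with a range of 0.002 to 0.524 over all alternatives.

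Hoxd13, which patterns the digits, differed between replicates more than between conditions. In its first region (chr2:74668191-74669210) 41 and 253 IP reads were counted in normal replicates 1 and 2, and 88 and 541 in starved replicates 1 and 2. Its input reads were 5, 106, 5 and 134. In density, IP replicate 2 was above replicate 1 by 1.11 (log2) in normal and by 2.08 in starved MEFs. The conditions overlapped, and the edgeR difference in IP reads was 0.27 ± 0.63 (log2, SE, adjusted p = 0.935). The second Hoxd13 region showed the same order, with IP densities of 10.6 and 31.4 in normal and 11.2 and 31.2 in starved MEFs. Hoxd8, a neighbour in the D cluster, had IP densities of 42.0, 30.2, 22.6 and 34.2, and its conditions overlapped.

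The Meis and Pbx families, cofactors of the Hox proteins, had no region called in all 4 lists. Meis1, Meis2 and Meis3 had 5 peaks in all, each in a starved list, with 224 IP reads in the largest. Kept peaks of all genes numbered 17364 and 21943 in the normal lists and 23088 and 24701 in the starved lists. With so few peaks of low count, a difference between conditions was not detectable for Meis.

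Sox4 was the most densely read family gene and rose under nutrient deprivation both in IP and in input. Sox4 encodes an activator of progenitor and mesenchymal genes, and its region (chr13:28949291-28954030) overlapped 4423 bases of its exon. Of the 4740 bases of the region, 2381 also lie over exons of Gm26735, a noncoding gene on the other strand, whose reads cannot be told apart from those of Sox4 here. IP reads were 8441 and 13566 in normal replicates 1 and 2 and 47826 and 35570 in starved replicates 1 and 2, and the IP density was 306, 341, 837 and 883. The input density was 379 and 408 in normal and 984 and 999 in starved MEFs. The starved libraries lay above the normal ones in both measures, with mean IP densities of 860 ± 32.7 against 324 ± 24.8 (SD, n = 2).

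By edgeR with Benjamini-Hochberg adjustment over 6531 regions, Sox4 IP reads per covered base rose by 1.41 ± 0.19 (log2, SE, adjusted p = 0.0184) and input reads by 1.30 ± 0.18 (adjusted p = 0.0136). The IP/input fold of the strongest peak stayed between 2.24 and 2.78 in the 4 libraries, and the edgeR difference of the ratio was 0.10 ± 0.16 (log2, SE, adjusted p = 0.999). Without the correction for covered length, the Sox4 difference was 1.26 in IP reads (adjusted p = 0.306) and 1.15 in input reads (adjusted p = 0.255), and no region of the series was called, although 285 were higher and 264 lower in IP reads at an unadjusted p under 0.05. Of the other Sox genes, Sox11 had 10 exonic peaks in all 4 lists, none in a region shared by all of them.

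Klf genes were the family with the most genes called throughout. Klf proteins are zinc finger factors of growth, differentiation and metabolism, and 8 of 12 genes (66.7%, background 42.9%) had a kept peak in all 4 lists, 7 of them with an exonic peak in each. Klf13 was the most densely read, with IP densities of 288 and 348 in normal and 266 and 372 in starved MEFs (chr7:63937731-63939120). Its input density was 242, 249, 262 and 220, so the conditions overlapped in both, and the IP difference was 0.01 ± 0.25 (log2, SE, adjusted p = 0.995).

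Klf2, a factor that responds to flow and keeps cells quiescent, fell. In its region over Klf2 exons (chr8:72319351-72320360), IP reads were 1230 and 1181 in normal and 380 and 636 in starved MEFs, and the IP density was 178, 138, 53.4 and 56.3. Input densities were 242 and 169 in normal and 70.5 and 69.6 in starved MEFs. The starved libraries lay below the normal ones in both. In edgeR with Benjamini-Hochberg adjustment, IP reads fell by 1.51 ± 0.21 (log2, SE, adjusted p = 0.0216) and input reads fell by 1.57 ± 0.28 (adjusted p = 0.0363), while the ratio differed by 0.04 ± 0.22 (adjusted p = 0.999). The IP call was lost without starved replicate 1 (−1.45, adjusted p = 0.102), the input call without normal replicate 1 (−1.33, adjusted p = 0.117), and both without the correction for covered length (−1.96 and −2.03, adjusted p = 0.319 and 0.265). Of its 2 other regions, which were not called in normal replicate 2, the larger had IP densities of 101 in normal replicate 1 and 66.0 and 34.0 in starved MEFs.

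Klf9, a gene induced by glucocorticoids, had IP densities of 104 and 88.4 in normal and 213 and 173 in starved MEFs (chr19:23140961-23142450). The input density was 116, 93.9, 238 and 187. The starved libraries lay above the normal ones in both, but edgeR with Benjamini-Hochberg adjustment did not call it (IP 1.02 ± 0.21, adjusted p = 0.0824, input 0.99 ± 0.25, adjusted p = 0.159, log2, SE). DESeq2 did call it (adjusted p = 0.00195 for IP and 0.0321 for input), and over all alternatives the adjusted p for IP ran from 0.00079 to 0.519. Klf10, which TGF-beta induces, could not be tested because its main region was missing from the list of normal replicate 2. Its IP reads were 175 in normal replicate 1 and 3636 and 3355 in starved replicates 1 and 2, over 390, 1550 and 1550 called bases. In the same order, the IP density was 64.8, 194 and 186 and the input density 88.0, 259 and 282. The IP/input fold of its strongest peak was 2.045, 2.069 and 2.071. Peaks below 2-fold had been dropped, so folds this near 2 say little on whether the ratio stayed the same.

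**Figure D3:**
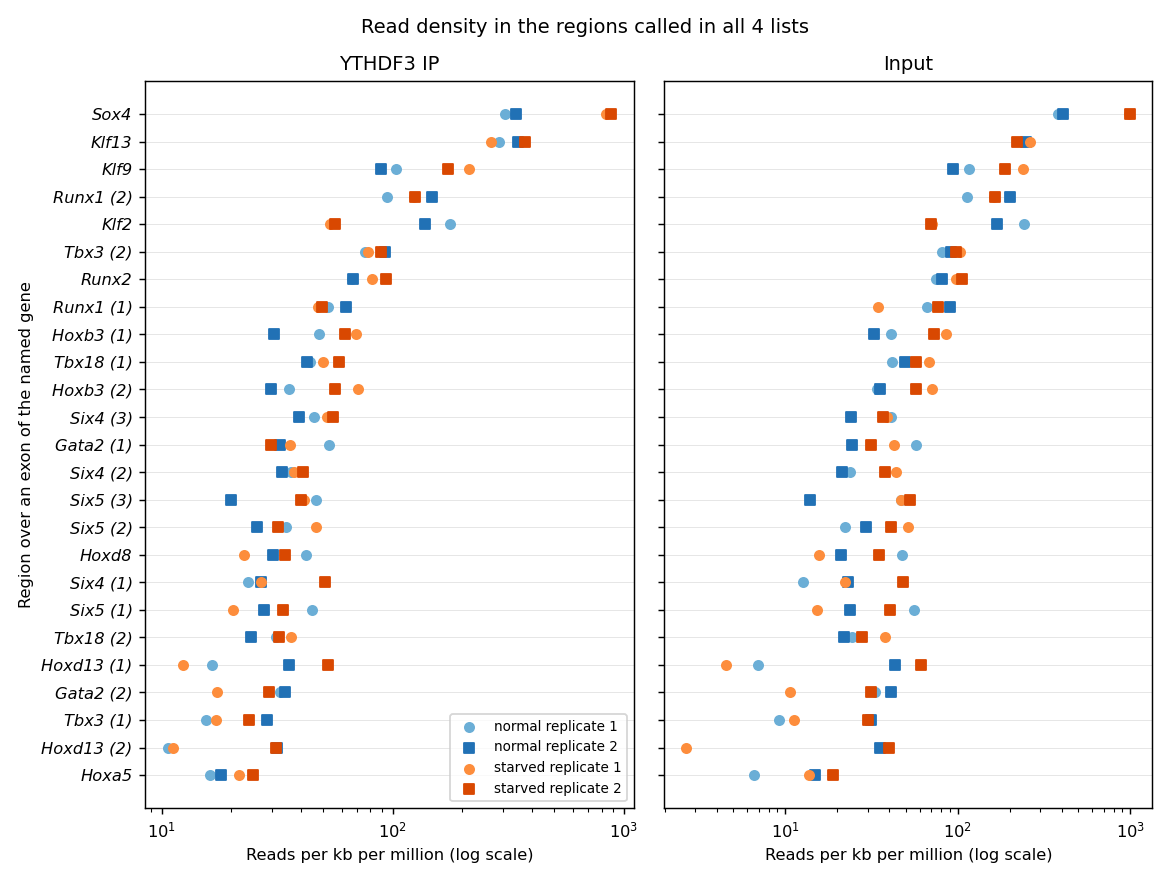
IP (left) and input (right) density on a log scale, in reads per kb per 1000000 reads, of the 25 regions over an exon of the named gene that were called in all 4 lists. Points are single libraries, genes with several regions are numbered by position, and an input of 0 is not drawn. Sox4 is at the top, with both starved libraries to the right of both normal ones, and Klf2 shows the opposite order.

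Runx, Tbx, Six4, Six5 and Gata regions were also called in all 4 lists, and none of them passed the edgeR tests. Runx1, a regulator of blood stem cells, had IP densities of 94.5 and 147 in normal and 123 and 125 in starved MEFs in its larger region (chr16:92695251-92699600). Runx2, the master regulator of bone, whose region of 1720 bases also has 519 over exons of Runx2os1, had 66.5 and 67.5 in normal and 80.8 and 93.7 in starved MEFs, with an edgeR difference of 0.39 ± 0.21 (log2, SE, adjusted p = 0.619). Tbx3, a limb and mammary factor, had 75.9, 92.7, 77.8 and 89.2 in its denser region. In these regions the Runx1 and Tbx3 libraries overlapped between conditions. Those of Runx2 did not, which with 2 libraries per condition does not set it apart.

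Six4 and Six5 were each called in 3 regions shared by all lists. In the region that held the printed site, the IP density of Six4 was 45.5 and 39.4 in normal and 51.7 and 55.3 in starved MEFs. For Six5 it was 44.5, 27.8, 20.3 and 33.5, so the starved libraries lay above the normal ones for Six4 and overlapped them for Six5. Another Six4 region (chr12:73108521-73109560) had a lower ratio under deprivation (−0.65 ± 0.29, log2, SE), with an unadjusted p of 0.0381 and an edgeR adjusted p of 0.999. Gata2, a blood and endothelial factor, had IP densities of 52.9 and 32.5 in normal and 35.7 and 29.7 in starved MEFs in its denser region, and these overlapped. In its other region (chr6:88205231-88205960) they were 32.4 and 34.0 in normal and 17.25 and 29.2 in starved MEFs. There the starved libraries lay below the normal ones in IP and in input, with an edgeR IP difference of −0.48 ± 0.31 (log2, SE, adjusted p = 0.705).

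Across the 32 regions, no change of the IP/input fold with nutrient deprivation passed the cutoff or the test. The fold of a region was that of its strongest peak, with at least 3 input reads in the divisor. A change had to reach 1.8-fold with the same sign in each replicate. Because peaks below 2-fold had been dropped, a region that fell below it in any library was not among those compared. This limits how far the fold and the ratio could fall, for Sox4 and Klf2 as well. No family region met this in either direction, where the background was 0.367% of 6531 regions higher and 0.352% lower. The fold was higher in both replicates for 9 regions (28.1%, background 27.3%) and lower in both for 11 (34.4%, background 25.4%). Of the 25 regions over an exon of the named gene, 6 (24%) were higher in both and 10 (40%) lower in both. In 7 of the 32 regions at least 1 fold rested on the 3-read minimum and is a lower bound. Nearest to the cutoff was Hoxd8, with folds of 2.46 and 4.17 in normal and 4.0 and at least 7.78 in starved MEFs. The Qsox2 region named Lhx3 followed, with 2.45 and 2.02 against 3.78 and 4.08. In the Tbx18 region at the 5′ end of the gene, the normal folds were at least 13.7 and 6.33 and the starved folds 3.56 and 4.16, so the fall may be larger than computed and its place below the cutoff is not settled. That region also lies over exons of D030062O11Rik. For Hoxd8 the sign turned when reads were summed over the region (ratio −0.18 ± 0.34, log2, SE, in edgeR).

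The edgeR test of the ratio, with Benjamini-Hochberg adjustment, called 0 of 32 family regions (background 0.0153% higher and 0% lower). At an unadjusted p under 0.05 it gave 1 higher and 2 lower (backgrounds 1.26% and 1.55%), and DESeq2 also called 0. The median difference was −0.07 (log2) in the families and −0.01 over all regions. For IP reads, 1 family region rose and 1 fell, beside backgrounds of 0.184% and 0.934%, and for input reads also 1 and 1, beside 0.214% and 0.766%. These were Sox4 and Klf2 in both tests. At an unadjusted p under 0.05, 5 family regions were higher and 1 lower in IP reads (backgrounds 5.01% and 5.37%), and 5 higher and 2 lower in input reads (backgrounds 4.01% and 4.23%). The median difference of the family regions was 0.15 in IP and 0.24 in input reads, beside 0.01 and 0.02 over all regions. A positive IP difference was found in 21 of 32, beside 3340 of 6531. In the 25 regions over an exon of the named gene, the medians were 0.274 in IP and 0.355 in input reads. Of these 25, 17 had a positive IP difference. At an unadjusted p under 0.05 in edgeR, 4 of the 25 were higher and 1 lower, in IP and also in input reads. In such bulk samples, fewer cells of a kind and less RNA per cell cannot be told apart.

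**Figure D4:**
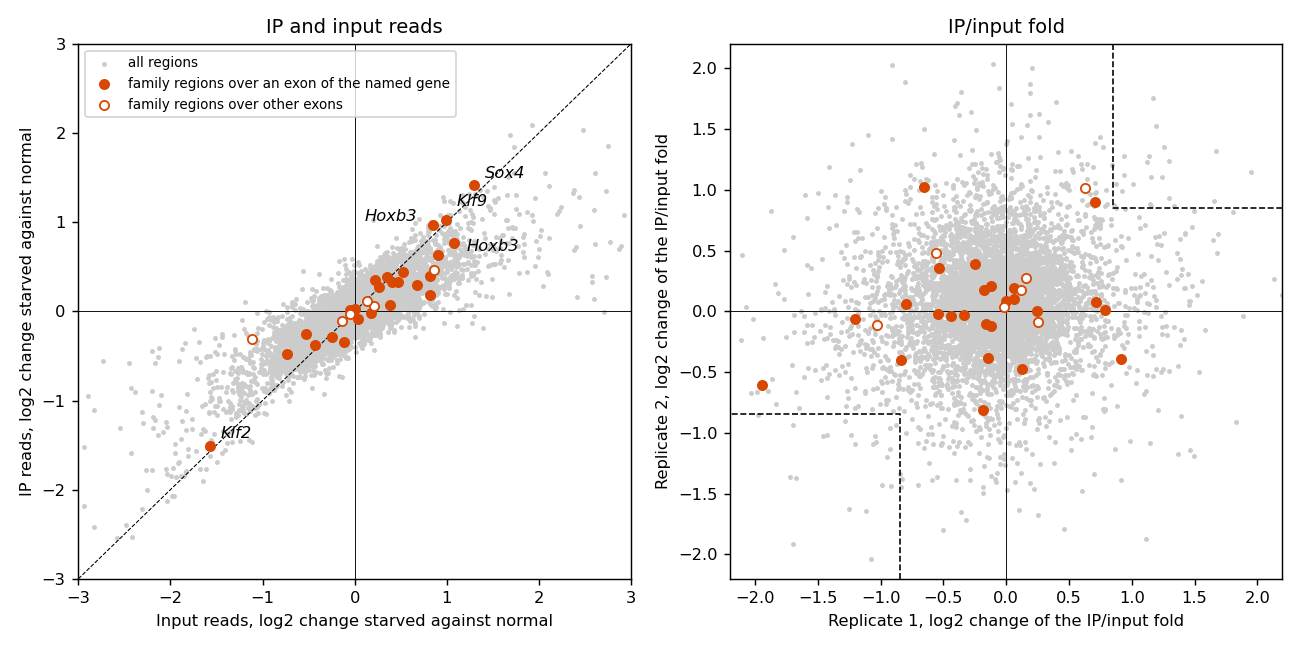
Left, log2 change of IP reads (vertical) against that of input reads (horizontal), starved against normal, for all 6531 regions (grey) and the family regions (orange, open where the exon is of another gene), with a dashed line of equal change. Right, log2 change of the IP/input fold in replicate 1 (horizontal) and replicate 2 (vertical), where dashed corners mark 1.8-fold in both and hold no family region. Regions beyond the axes, 1 family region on the left among them, are not drawn.

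Regions named for a family but lying over another gene's exons were followed apart. The region named Twist2 over Gm29100 had 13 and 11 IP reads in normal and 446 and 246 in starved MEFs, with input reads of 0 and 0 against 49 and 37. The starved libraries were above the normal ones, and edgeR gave 1.69 ± 0.33 (log2, SE) for IP reads, which did not pass adjustment (adjusted p = 0.0688), while DESeq2 called it (adjusted p = 0.0434, range over all alternatives 0.0079 to 0.222). Without the covered length as an offset the IP difference was 4.13, and the called sequence was 200 and 210 bases long in normal and 1400 and 980 in starved MEFs. The normal input of 0 makes its folds bounds and its ratio unstable, yet it counts among the 9 regions with a higher fold in both replicates and, by the fitted ratio, among the 2 lower at an unadjusted p under 0.05. The Qsox2 region named Lhx3 had input densities of 79.4 and 80.5 in normal and 40.4 and 34.8 in starved MEFs and IP densities of 70.0, 56.2, 55.4 and 45.3. Its ratio was 0.79 ± 0.23 (log2, SE) higher, with an unadjusted p of 0.00312 and an edgeR adjusted p of 0.999.

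Some regions were restricted to 1 condition, called in its 2 lists and not in the rest. They numbered 10 for starved MEFs (4.33% of 231 family regions, background 4.7%) and 3 for normal MEFs (background 1.3%). Among them, 3 starved regions and 1 normal region were named Twist2, and 1 starved region was named Pbx4. None of these lay over an exon of the named gene. Hoxa10, which patterns the limb and the uterus, had 96 and 72 IP reads in the starved lists, and a Hoxd9 region had 53 and 51. A Klf3 region had 107 and 56 IP reads in the normal lists alone. These counts are low, and reads outside the called peaks are not in the lists, so no difference between conditions was tested for them.

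Genes that work with the families were taken as 2 lists, by deposited name alone and without the check for an exon of the named gene. Of 26 partner and cofactor genes, 16 had a kept peak and 3 had one in all 4 lists. Their 5 regions called throughout carried the names of Zfpm1, a Gata cofactor, and Tle3, a corepressor. Of 53 other mesenchymal transcription factor genes, 35 had a kept peak and 11 had one in all 4 lists. The background for both lists is 42.9% of 8612 genes with a kept peak. The mesenchymal list had 11 regions called throughout, which carried 6 gene names, Tead4 most often. None of these 16 regions passed edgeR with Benjamini-Hochberg adjustment in IP reads, input reads or ratio, with smallest adjusted p-values of 0.569 and 0.268 in IP reads.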

How the data were processed

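YTHDF3 RIP-seq peak lists of 4 IP libraries were analysed. The authors trimmed reads, aligned them to mm10 with TopHat2 2.0.13, called peaks of IP over input with diffReps and named them with HOMER. For normal replicate 2 they deposited counts of reads per peak, and for the others a signal, reads multiplied by 1 factor per library, from which whole reads were recovered by the spacing of the values (within 0.1 reads). They also deposited the log2 of the IP to input ratio, and p-values, used only as the threshold of kept peaks. The lists do not name their inputs, and each was taken to match its IP library by condition and number.

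Members and gene lists were chosen with earlier results of these data known. For regions shared by all lists, edgeR 4.0.16 under R 4.3.3 was run (quasi-likelihood, TMM, Benjamini-Hochberg over 6531 regions), with the covered length as an offset for IP and input reads, and a term per culture for the ratio. DESeq2 1.42.0, filters, scaling, a replicate block and left-out libraries were alternatives. The tests were tested on simulated data. Exons came from GENCODE, and sequence from the RefSeq copy of GRCm38. Genes named were the densest region of each family, up to 6 regions per direction of smallest p for IP and for input reads, and examples of regions called in 1 condition. Other steps ran in Python 3.11.15 (pysam 0.24.0, numpy 2.4.6, pandas 2.3.3). Permutation tests over 2 against 2 libraries cannot reach 0.05, and the precision of low counts is limited by counting error. Some member genes are not reported here by name.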

Additional observations from a re-analysis of the deposited data

How the results depend on the processing

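Requiring an IP/input fold of at least 4 left 41, 42, 70 and 46 family peaks in normal replicates 1 and 2 and starved replicates 1 and 2, and requiring an exon of the named gene left 74 in normal replicate 2. With the fold of at least 4, 1 family region was called in all lists, and 0 were higher and 0 lower in both replicates. With a cutoff of 1.5, 2 regions had a higher and 1 a lower IP/input fold in both replicates. Shares over all regions are not given for that cutoff or for the fold of at least 4, so these counts do not set the families apart. Judged on 1 replicate alone, the 1.8-fold cutoff gave 1 to 3 regions higher and 0 to 3 lower. Over all 6531 regions, that cutoff gave 169 and 261 higher and 375 and 168 lower in replicates 1 and 2. Any change gave 12 to 18 family regions higher and 14 to 20 lower, for which no share over all regions is given. DESeq2 called 4 regions higher and 1 (Klf2) lower in IP reads, beside 1.05% and 1.76% of all regions, and 2 higher and 1 (Klf2) lower in input reads, beside 0.728% and 1.44%. The 4 regions higher in IP reads include the Gm29100 region. Without the covered length as an offset, 0 regions were called higher or lower in IP or input reads. With 1 library left out, the Sox4 difference ran from 1.26 to 1.55 in IP reads and from 1.22 to 1.39 in input reads (log2). That of Klf2 ran from −1.63 to −1.40 in IP reads and from −1.79 to −1.33 in input reads. The ratio test called 0 under each alternative.

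Replicate numbers were shared between conditions, with correlations of deviations of 0.452 in IP reads, 0.281 in input reads and 0.271 in folds over 6531 regions, but with 2 pairs these did not establish pairing. With a replicate block, 5 regions were higher in IP reads (Sox4, Klf9, both Hoxb3 regions and the Gm29100 region) and Klf2 lower, beside 4.92% higher and 5.04% lower over all regions. In input reads 2 were higher (Sox4 and Klf9) and 2 lower (Klf2 and the Qsox2 region), beside 1.65% and 2.3%. Depth of the whole libraries is unknown here and limits regions of low count.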
